A study of Mus musculus with 12 samples.

Results

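The Schlafen (Slfn) genes form a cluster on mouse chromosome 11, and 7 of them are described here across 12 pancreatic tumours. They are Slfn1, Slfn2, Slfn3, Slfn4, Slfn5, Slfn8 and Slfn9. The 7 were chosen by their symbols out of 24956 gene symbols in the count table, with the earlier genotype results of these tumours known. The host genotype differences of the members are therefore given as a description and not as a test. Schlafen proteins share a domain related to ATP-binding proteins. Slfn1 and Slfn2 are the short forms, Slfn3 and Slfn4 are of intermediate length, and Slfn5, Slfn8 and Slfn9 are long forms that also carry a helicase-like region. The family was first described in the mouse as genes regulated during thymocyte maturation and T cell activation, and many members are induced by type I interferon in lymphoid and myeloid cells.

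Of the tumours, 6 grew in hosts labelled Alb-Cre+/+ STAT3f/f, in which the albumin promoter drives Cre recombinase, mainly in hepatocytes, on 2 floxed alleles of the transcription factor gene Stat3. The other 6 grew in hosts labelled WT. All 12 came from 1 line, PDA.69. The labels describe it as a pancreatic ductal adenocarcinoma line with few T cells, derived from KPC mice, which develop pancreatic cancer. The tumours thus shared the cell line and differed in the host. Age, sex and the route of implantation are not stated in the labels, and none of them states that the tumours came from separate animals, so a p-value here reflects how much these 12 samples vary. Stat3 itself checks nothing here, because its deletion was in the host liver. It had a lowest, median and highest value of 202, 259 and 302 CPM (counts per 1000000 counts of the TMM-scaled library) in Alb-Cre+/+ STAT3f/f tumours, against 232, 262 and 273 CPM in WT tumours.

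RNA came from slides of fixed, embedded tissue and was read as 3′ tags, 1 library per tumour, with 5691707 to 8085609 counts per library. Since a tag comes from the end of a transcript, CPM does not scale with transcript length and can be compared between genes. The epithelial markers were present: Cdh1, the epithelial cadherin, averaged 755 ± 95.4 CPM in Alb-Cre+/+ STAT3f/f tumours and 947 ± 114 CPM in WT tumours (SD, n = 6 each). Acinar transcripts of the pancreas entered the samples unevenly. Genes of a 20-gene list of acinar enzymes held over 15% of the counts in 5 tumours, Alb-Cre+/+ STAT3f/f tumours 1 to 4 and WT tumour 5. Fewer cells of a type and less RNA per cell cannot be told apart in these bulk samples.

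The 7 members lie within 264 kb of GRCm38 (mm10) in GENCODE release M21. With a transcribed pseudogene, Slfn10-ps, the order is Slfn5, Slfn9, Slfn8, Slfn10-ps, Slfn2, Slfn1, Slfn4 and Slfn3. A further Schlafen gene, Slfn14 (chr11:83275110-83286726, minus strand), lies beyond Slfn3 and had 14 counts over all tumours. Slfnl1, on chromosome 4, had 3 counts. These 2 genes are not among the members, and their counts were too low to be tested. Slfn5 (chr11:82951349-82964840), Slfn2 (chr11:83065112-83070678), Slfn1 (chr11:83116849-83122670), Slfn4 (chr11:83175186-83190216) and Slfn3 (chr11:83191330-83215154) lie on the plus strand, and Slfn9 (chr11:82978390-82991830) and Slfn8 (chr11:83002158-83020810) on the minus strand. Promoter windows from the RefSeq table of GRCm38.p6 matched all 7 members by symbol. The 250 bases upstream of the start are shown for the pair with the higher levels in Alb-Cre+/+ STAT3f/f tumours (Slfn1 and Slfn5) and for a close relative or neighbour of each (Slfn2 and Slfn9). Capitals mark 2 kinds of match, searched on both strands: the core GAAANNGAAA of the interferon-stimulated response element, and the run ACTTCCTGGAG. That run is the longest found in the windows of Slfn1, Slfn2 and Slfn4 together and was chosen after the sequences were seen. The windows are chr11:83116570-83116819 (plus strand) for Slfn1 and chr11:82951852-82952101 (plus strand) for Slfn5. They are chr11:83064862-83065111 (plus strand) for Slfn2 and chr11:82991831-82992080 (minus strand) for Slfn9.
Slfn1: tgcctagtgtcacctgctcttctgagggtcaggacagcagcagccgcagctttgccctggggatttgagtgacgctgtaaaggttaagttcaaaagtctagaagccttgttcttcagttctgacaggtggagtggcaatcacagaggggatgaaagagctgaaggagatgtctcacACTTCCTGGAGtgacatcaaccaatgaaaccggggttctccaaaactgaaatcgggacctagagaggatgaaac
Slfn5: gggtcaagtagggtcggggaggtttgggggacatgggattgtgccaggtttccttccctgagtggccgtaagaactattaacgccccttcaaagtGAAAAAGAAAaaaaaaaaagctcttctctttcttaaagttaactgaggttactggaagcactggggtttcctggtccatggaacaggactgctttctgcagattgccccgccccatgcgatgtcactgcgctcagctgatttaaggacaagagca
Slfn2: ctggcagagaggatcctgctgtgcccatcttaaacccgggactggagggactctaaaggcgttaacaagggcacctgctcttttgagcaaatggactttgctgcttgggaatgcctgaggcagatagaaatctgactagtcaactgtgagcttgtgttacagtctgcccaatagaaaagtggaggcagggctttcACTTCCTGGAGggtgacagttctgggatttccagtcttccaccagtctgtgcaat
Slfn9: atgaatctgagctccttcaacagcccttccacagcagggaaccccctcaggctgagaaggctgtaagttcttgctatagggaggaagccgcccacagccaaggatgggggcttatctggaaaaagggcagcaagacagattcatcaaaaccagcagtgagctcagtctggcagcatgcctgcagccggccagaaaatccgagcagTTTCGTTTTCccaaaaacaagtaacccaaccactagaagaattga

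The response element core was found in 3 of the 7 windows: those of Slfn5 (bases 155 to 146 before the start), Slfn8 (bases 48 to 39) and Slfn9 (bases 45 to 36). It is present in 2.98% of 32851 RefSeq windows of the same length. In Slfn8 and Slfn9 the match was the same run on the opposite strand, TTTCGTTTTC. Their 2 windows were 84.0% identical when aligned end to end, against 54.8 to 62.4% for every other pair of members. The gamma-activated site TTCNNNGAA, bound by STAT proteins, was in none of the 7 windows and in 7.02% of all windows. The shared run lay 74 to 64 bases before the start in Slfn1, 55 to 45 in Slfn2 and 73 to 63 in Slfn4. It occurred in 20 of the 32851 windows (0.0609%). Its presence in those members was fixed by how it was chosen, so nothing is read from that share. The Slfn3 window held a near match, acttcctgggg. Of the Slfn5 window, 117 bases lie in annotated Slfn5 exons, of which 7 lie in exons of a protein-coding transcript. These matches describe the letters of the windows and say nothing of binding.

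Reads of close relatives could be mixed up, so the 3′ ends were compared. In the last 400 bases of the longest coding transcript of each member, none of the 351 stretches of 50 bases of Slfn1, Slfn2, Slfn4, Slfn5, Slfn8 or Slfn9 occurred in a transcript of another gene. Slfn3 was the exception among members, with 10.8% of its stretches also in Slfn4 transcripts, and 7.98% of those of Slfn10-ps were also in Slfn8. Transcripts that end elsewhere were not compared, and how the authors counted reads that match several genes is unknown from the sources at hand. The strand setting is unknown too. Slfn5 overlaps the antisense gene Slfn5os (2 counts in Alb-Cre+/+ STAT3f/f tumours and 4 in WT tumours), and Slfn2 overlaps the antisense gene Gm20234. Reads of such partners cannot be told apart.

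**Figure D1:**
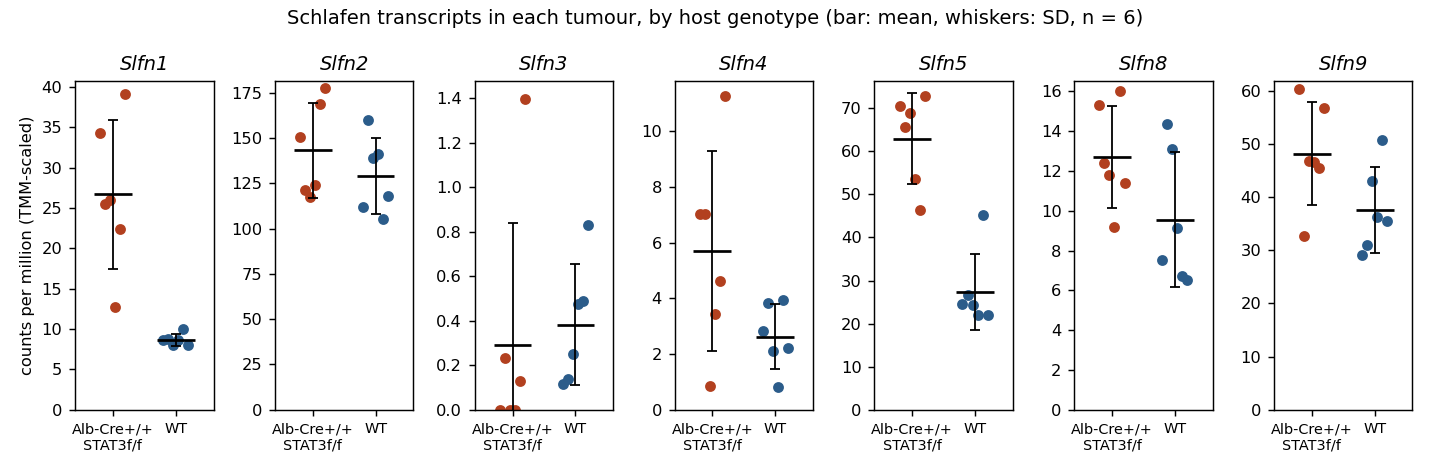
Level of each Schlafen transcript in every tumour, in TMM-scaled CPM, with Alb-Cre+/+ STAT3f/f tumours left and WT tumours right of each panel (points are tumours, bars the mean, whiskers the SD, n = 6 each). On this scale all 6 Alb-Cre+/+ STAT3f/f tumours lie above every WT tumour for Slfn1 and Slfn5, while the groups overlap for the other 5 members. Per library total, the groups overlap for Slfn1 and Slfn5 as well.

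Among the short forms, Slfn1, which in the mouse slows T cell growth when overexpressed, had a lowest, median and highest value of 12.8, 25.7 and 39.2 CPM in Alb-Cre+/+ STAT3f/f tumours, against 7.99, 8.64 and 9.97 CPM in WT tumours. On the TMM scale the groups did not overlap. The 6 WT tumours lay close together (8.67 ± 0.716 CPM, SD) while the Alb-Cre+/+ STAT3f/f tumours spread widely (26.7 ± 9.25 CPM). The fitted log2 fold change of Slfn1 was 1.62 ± 0.21 (SE), a 3.08-fold higher level (adjusted p = 0.000483, edgeR quasi-likelihood test with Benjamini-Hochberg adjustment over 12856 genes). Slfn2, whose loss in mice makes T cells and monocytes leave quiescence and die more readily, was the most abundant member. It had 117, 137 and 178 CPM in Alb-Cre+/+ STAT3f/f tumours, against 105, 129 and 160 CPM in WT tumours. The Slfn2 groups overlapped almost fully, with 2 of the 6 Alb-Cre+/+ STAT3f/f tumours higher than any WT tumour. Its log2 fold change was 0.15 ± 0.13 (SE; adjusted p = 0.548, edgeR with Benjamini-Hochberg adjustment). The sum of the counts of both genes had a log2 fold change of 0.30 ± 0.13 (SE; adjusted p = 0.189, edgeR with Benjamini-Hochberg adjustment). Over all tumours Slfn2 gave 11419 counts to this sum and Slfn1 gave 1390.

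Of the intermediate forms, Slfn4, which in mouse macrophages is induced by interferon and Toll-like receptor ligands, had 0.857, 5.81 and 11.3 CPM as lowest, median and highest value in Alb-Cre+/+ STAT3f/f tumours, against 0.828, 2.53 and 3.92 CPM in WT tumours. Of the 6 Alb-Cre+/+ STAT3f/f tumours, 4 exceeded all WT tumours and 1, tumour 3, held only 4 counts. The log2 fold change of Slfn4 was 1.14 ± 0.45 (SE; adjusted p = 0.168, edgeR with Benjamini-Hochberg adjustment), almost as large as that of Slfn5 but with a far wider error. The depth behind it was small, 222 counts over the Alb-Cre+/+ STAT3f/f tumours and 117 over the WT tumours. Slfn3, linked in rodents to intestinal epithelial differentiation, was close to undetected, with 13 counts over the Alb-Cre+/+ STAT3f/f tumours and 17 over the WT tumours. It was at 0 counts in 3 Alb-Cre+/+ STAT3f/f tumours, where a count of 0 allows up to 0.450 to 0.642 CPM, and it did not pass the filter on low counts.

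Of the long forms, Slfn5, known from human cells to repress interferon-induced and viral transcription, had 46.3, 67.2 and 72.8 CPM as lowest, median and highest value in Alb-Cre+/+ STAT3f/f tumours, against 21.9, 24.3 and 45.1 CPM in WT tumours. On the TMM scale the groups did not overlap. WT tumour 5, at 45.1 CPM, stood apart from the other 5 WT tumours and lay next to the lowest Alb-Cre+/+ STAT3f/f tumour. The log2 fold change of Slfn5 was 1.20 ± 0.17 (SE), a 2.30-fold higher level (adjusted p = 0.000847, edgeR with Benjamini-Hochberg adjustment). Without WT tumour 5, it was 1.40 ± 0.14 (SE). Scaled by library totals alone, which moved the median log2 fold change of all genes to -0.41, it was 0.80 (adjusted p = 0.0545, edgeR). The values of Slfn2 and Slfn9 then turned below 0. On that scale the groups of Slfn1 and Slfn5 overlapped. For Slfn1, WT tumour 4 had 73 of 6639749 counts and Alb-Cre+/+ STAT3f/f tumour 4 had 85 of 7810824. For Slfn5, WT tumour 5 had 276 of 6497135 counts and Alb-Cre+/+ STAT3f/f tumour 3 had 321 of 8085609. Slfn9 and Slfn8, a closely related pair of the mouse, lay side by side in the cluster but at unlike levels. Slfn9 had 32.7, 46.6 and 60.2 CPM in Alb-Cre+/+ STAT3f/f tumours, against 29.0, 35.9 and 50.7 CPM in WT tumours. Slfn8 had 9.16, 12.1 and 16.0 CPM in Alb-Cre+/+ STAT3f/f tumours, against 6.51, 8.31 and 14.4 CPM in WT tumours. For both genes 2 of the 6 Alb-Cre+/+ STAT3f/f tumours exceeded all WT tumours. The log2 fold change was 0.36 ± 0.15 (SE) for Slfn9 and 0.41 ± 0.23 (SE) for Slfn8 (adjusted p = 0.203 and 0.334, edgeR with Benjamini-Hochberg adjustment).

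Of the 7 members, 6 passed the filter on low counts, and 2 of these 6 were called higher and 0 lower at an adjusted p under 0.05 in edgeR. Over all tested genes 2.23% were called higher and 0.747% lower. On the TMM scale, 2 members had all 6 Alb-Cre+/+ STAT3f/f tumours above every WT tumour and 0 had all 6 below. Over all tested genes these shares were 1.37% and 0.646%. Nothing is read from these shares, since the family was chosen with the results of this contrast known. Unadjusted p was under 0.05 in edgeR for 4 of the 6 members (Slfn1, Slfn5, Slfn4 and Slfn9), beside 2490 of all 12856 tested genes. Among the members not called, the lowest adjusted p was 0.168 for Slfn4, and the next was 0.203 for Slfn9 (edgeR with Benjamini-Hochberg adjustment).

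The order of the members by level changed with the host in 2 places. In Alb-Cre+/+ STAT3f/f tumours the mean levels, from high to low, were Slfn2 (143 CPM), Slfn5 (63.0 CPM), Slfn9 (48.1 CPM), Slfn1 (26.7 CPM), Slfn8 (12.7 CPM), Slfn4 (5.71 CPM) and Slfn3 (0.293 CPM). There the range of each member below Slfn2 overlapped that of the next. In WT tumours the mean levels ran from Slfn2 (129 CPM) through Slfn9 (37.6 CPM), Slfn5 (27.4 CPM), Slfn8 (9.55 CPM), Slfn1 (8.67 CPM) and Slfn4 (2.63 CPM) to Slfn3 (0.383 CPM). Of neighbours in that order, Slfn9 and Slfn5, Slfn8 and Slfn1, and Slfn4 and Slfn3 overlapped across tumours. Ratios within a tumour do not depend on scaling between libraries. For each 100 counts of Slfn9, there were 102, 123 and 201 counts of Slfn5 (lowest, median, highest) in Alb-Cre+/+ STAT3f/f tumours, against 56.2, 73.0 and 89.0 in WT tumours. Slfn5 thus outnumbered Slfn9 in each of the 6 Alb-Cre+/+ STAT3f/f tumours and in none of the 6 WT tumours.

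For each 100 counts of Slfn2, there were 10.3, 21.5 and 22.8 counts of Slfn1 in Alb-Cre+/+ STAT3f/f tumours, against 5.47, 6.46 and 9.49 in WT tumours, again without overlap. The ratio of the 2 members called higher overlapped. There were 23.8, 43.6 and 53.8 counts of Slfn1 per 100 of Slfn5 in Alb-Cre+/+ STAT3f/f tumours, against 22.1, 34.2 and 39.2 in WT tumours. The ratio of Slfn8 to Slfn9 overlapped fully, with medians of 25.3 and 25.5 per 100 in Alb-Cre+/+ STAT3f/f and WT tumours.

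Of all counts of the 7 members and Slfn10-ps, 11826 in Alb-Cre+/+ STAT3f/f tumours and 10460 in WT tumours, Slfn2 held 46.2% (exact binomial 95% interval 45.3 to 47.1%) in Alb-Cre+/+ STAT3f/f tumours and 56.9% (56.0 to 57.9%) in WT tumours. Slfn5 held 19.4% (18.7 to 20.1%) and 11.7% (11.1 to 12.3%) in Alb-Cre+/+ STAT3f/f and WT tumours, and Slfn1 held 8.41% (7.91 to 8.92%) and 3.79% (3.43 to 4.17%). These intervals cover counting error only. Between tumours the share of Slfn1 did not overlap (4.87 to 10.0% in Alb-Cre+/+ STAT3f/f tumours, against 3.23 to 4.46% in WT tumours), while those of Slfn2 and Slfn5 did. The share of Slfn9 was 15.3% (14.7 to 16.0%) and 16.3% (15.6 to 17.0%) in Alb-Cre+/+ STAT3f/f and WT tumours.

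**Figure D2:**
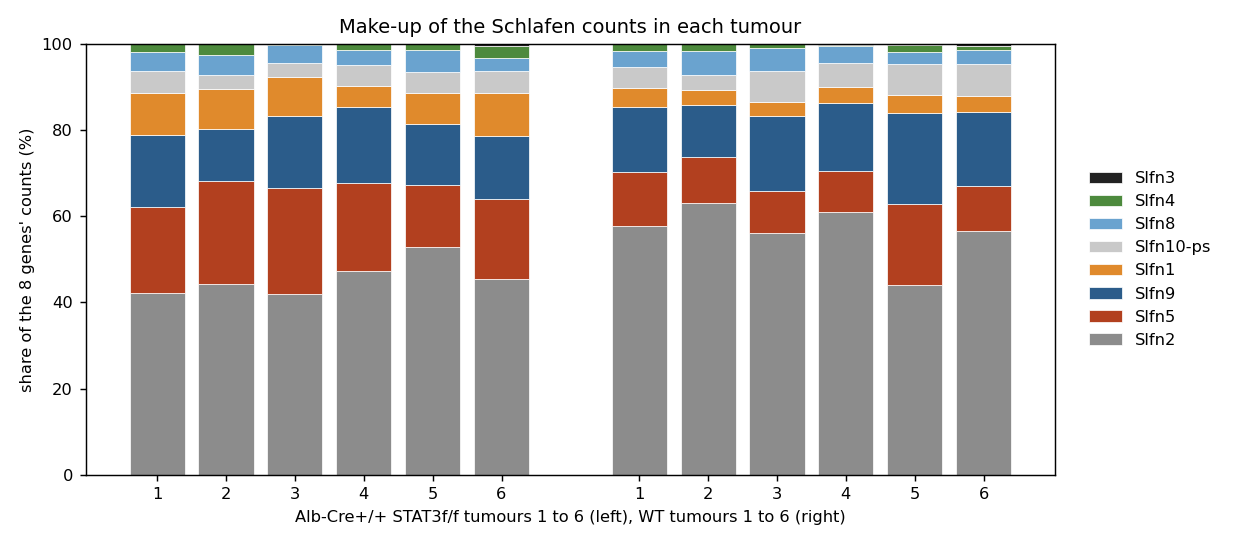
Share (%) of each gene in the summed counts of the 7 Schlafen members and the pseudogene Slfn10-ps, 1 bar per tumour, Alb-Cre+/+ STAT3f/f tumours left and WT tumours right. Slfn2 is the largest part of every bar, and the Slfn1 part is larger in each Alb-Cre+/+ STAT3f/f tumour (4.87 to 10.0%) than in any WT tumour (3.23 to 4.46%).

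The difference did not follow the order of genes along the chromosome. Between Slfn5 and Slfn1 on the chromosome lie Slfn9, Slfn8, Slfn10-ps (log2 fold change 0.08 ± 0.24, SE) and Slfn2, none of which was called. Besides the Slfn genes, 30 genes that start within 500 kb of the 7 members are in the table, and 18 passed the filter. Of the 18, 2 were called higher and 0 lower, beside 2.23% and 0.747% of all tested genes. The median log2 fold change was 0.07, beside -0.00077 for all tested genes. The count was 1 without any one of Alb-Cre+/+ STAT3f/f tumours 1, 2 and 3 and WT tumours 3 and 6, and 4 without Alb-Cre+/+ STAT3f/f tumour 4. Of the 2, AI662270 is a noncoding transcript and the nearest tested gene beyond Slfn3, and it lies between Slfn3 and Slfn14. It averaged 39.0 ± 7.25 CPM in Alb-Cre+/+ STAT3f/f tumours and 21.0 ± 4.77 CPM in WT tumours (SD, n = 6 each). All 6 Alb-Cre+/+ STAT3f/f tumours exceeded all WT tumours, with a log2 fold change of 0.90 ± 0.17 (SE; adjusted p = 0.00586, edgeR with Benjamini-Hochberg adjustment). The other was Ccl9, a chemokine for myeloid cells, at 46.6 ± 13.1 CPM in Alb-Cre+/+ STAT3f/f tumours and 25.1 ± 7.06 CPM in WT tumours (SD, n = 6 each; adjusted p = 0.0232, edgeR with Benjamini-Hochberg adjustment). On the other side, Unc45b, a myosin chaperone of muscle, averaged 1.31 ± 0.926 CPM in Alb-Cre+/+ STAT3f/f tumours and 2.71 ± 1.01 CPM in WT tumours (SD, n = 6 each; adjusted p = 0.178, edgeR with Benjamini-Hochberg adjustment).

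**Figure D3:**
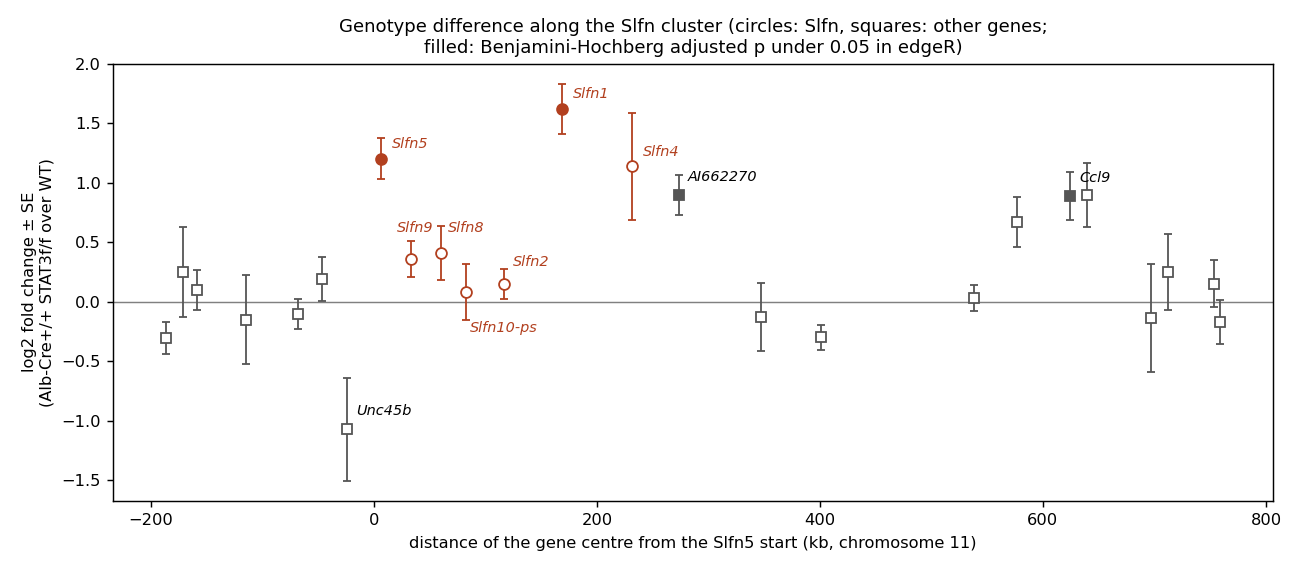
Log2 fold change (Alb-Cre+/+ STAT3f/f over WT, whiskers 1 SE) of the tested Slfn genes (circles) and of other tested genes nearby (squares) against the distance of the gene centre from the start of Slfn5 in kb. Filled symbols passed an adjusted p of 0.05 in edgeR: Slfn5 (1.20) and Slfn1 (1.62) with unfilled Slfn genes between them, and AI662270 (0.90) and Ccl9 (0.89) further along.

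The interferon pathway, to which several Schlafen genes respond, was read from lists of other genes. Of 35 tested type I interferon-stimulated genes, 5 were called higher and 0 lower by edgeR, beside 2.23% and 0.747% of all tested genes. An unadjusted p under 0.05 was found for 26 of the 35 in edgeR, beside 2490 of all 12856 tested genes. Of the 35 fold changes 33 were above 0, and the median log2 fold change was 0.58. Rtp4, a chaperone of receptor transport, averaged 43.8 ± 6.18 CPM in Alb-Cre+/+ STAT3f/f tumours and 27.7 ± 6.41 CPM in WT tumours (SD, n = 6 each; adjusted p = 0.0232, edgeR with Benjamini-Hochberg adjustment). Oas2, a sensor of double-stranded RNA, averaged 8.69 ± 4.94 CPM and 3.09 ± 1.28 CPM in Alb-Cre+/+ STAT3f/f and WT tumours (adjusted p = 0.0275, same edgeR test). Trim30a and Phf11d were called as well, with log2 fold changes of 0.79 ± 0.19 and 1.09 ± 0.26 (SE; adjusted p = 0.0259 and 0.0248, edgeR with Benjamini-Hochberg adjustment). This count varied with tumours and settings. It was 12 with DESeq2, 0 with the acinar score as a covariate and 1 once the acinar-rich tumours were left out. The same count was 0 without Alb-Cre+/+ STAT3f/f tumour 1 or WT tumour 1, 1 without Alb-Cre+/+ STAT3f/f tumour 6 or WT tumour 4, and 2 without Alb-Cre+/+ STAT3f/f tumour 3 or WT tumours 3 or 6. Calls over all genes moved in the same fits. From 287 higher in the main fit, they went to 614 with DESeq2 (of 14967 genes with an adjusted p). They were 140 with the acinar covariate, 83 without the acinar-rich tumours and 141 to 471 without each tumour in turn.

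Beside the edgeR counts of the next lists stand those of all 12856 tested genes: 2.23% called higher, 0.747% called lower and 2490 at an unadjusted p under 0.05. Of 22 tested interferons, receptors and signalling genes, 9 had an unadjusted p under 0.05 in edgeR, and 2 were called higher and 0 lower. The 2 called were Mb21d1, the gene of the DNA sensor cGAS (log2 fold change 0.94 ± 0.19, SE), and Irf5, a transcription factor downstream of Toll-like receptors (0.91 ± 0.23, SE). Their adjusted p was 0.0112 and 0.0332 in edgeR with Benjamini-Hochberg adjustment. This count was 5 with DESeq2, 0 without the acinar-rich tumours, and 1 without any one of Alb-Cre+/+ STAT3f/f tumours 1, 3 and 6 and WT tumours 1, 3 and 4. Ifnb1, Ifnl2 and Ifnl3 were at 0 counts in all 12 tumours, where a count of 0 allows up to 0.34 to 0.70 CPM per library. Of 21 tested interferon gamma targets, 20 had an unadjusted p under 0.05 in edgeR. All 21 fold changes were above 0, and their median was 1.15 on the log2 scale. Of the 21, 10 were called higher and 0 lower. That count was 19 with DESeq2, 5 with the acinar covariate, 4 without the acinar-rich tumours, 5 without Alb-Cre+/+ STAT3f/f tumour 1, and 6 without Alb-Cre+/+ STAT3f/f tumour 2 or WT tumours 3 or 4. Irgm1, a GTPase of cell-autonomous defence, averaged 21.4 ± 2.86 CPM in Alb-Cre+/+ STAT3f/f tumours and 8.76 ± 1.81 CPM in WT tumours (SD, n = 6 each; adjusted p = 0.000499, edgeR with Benjamini-Hochberg adjustment). Cxcl10, a chemokine for activated T cells, averaged 12.7 ± 6.48 CPM and 5.61 ± 0.530 CPM in Alb-Cre+/+ STAT3f/f and WT tumours (adjusted p = 0.0172, same edgeR test). Gbp4 and Psmb9 were also among them, with log2 fold changes of 1.96 ± 0.28 and 1.41 ± 0.25 (SE). Of 11 tested quiescence factors, the roles for which Slfn2 is known, 0 were called by edgeR and 2 by DESeq2, and 1 by edgeR without Alb-Cre+/+ STAT3f/f tumours 4 or 5 or WT tumour 2. Of the 11, 6 had an unadjusted p under 0.05, and the median log2 fold change was -0.14, with 4 values above 0 and 7 below. Il7r, the interleukin 7 receptor of resting T cells, averaged 14.0 ± 2.28 CPM in Alb-Cre+/+ STAT3f/f tumours and 7.88 ± 3.62 CPM in WT tumours (SD, n = 6 each; adjusted p = 0.0589, edgeR with Benjamini-Hochberg adjustment). Btg2, an antiproliferative gene, averaged 67.7 ± 41.9 CPM and 26.4 ± 6.83 CPM in Alb-Cre+/+ STAT3f/f and WT tumours (adjusted p = 0.0990, same edgeR test). Tsc1, an inhibitor of mTORC1 that keeps T cells quiescent, was named after its values were seen, as the value below 0 with the smallest p. It averaged 25.8 ± 3.39 CPM in Alb-Cre+/+ STAT3f/f tumours and 33.6 ± 5.74 CPM in WT tumours (SD, n = 6 each; adjusted p = 0.126, edgeR with Benjamini-Hochberg adjustment).

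**Figure D4:**
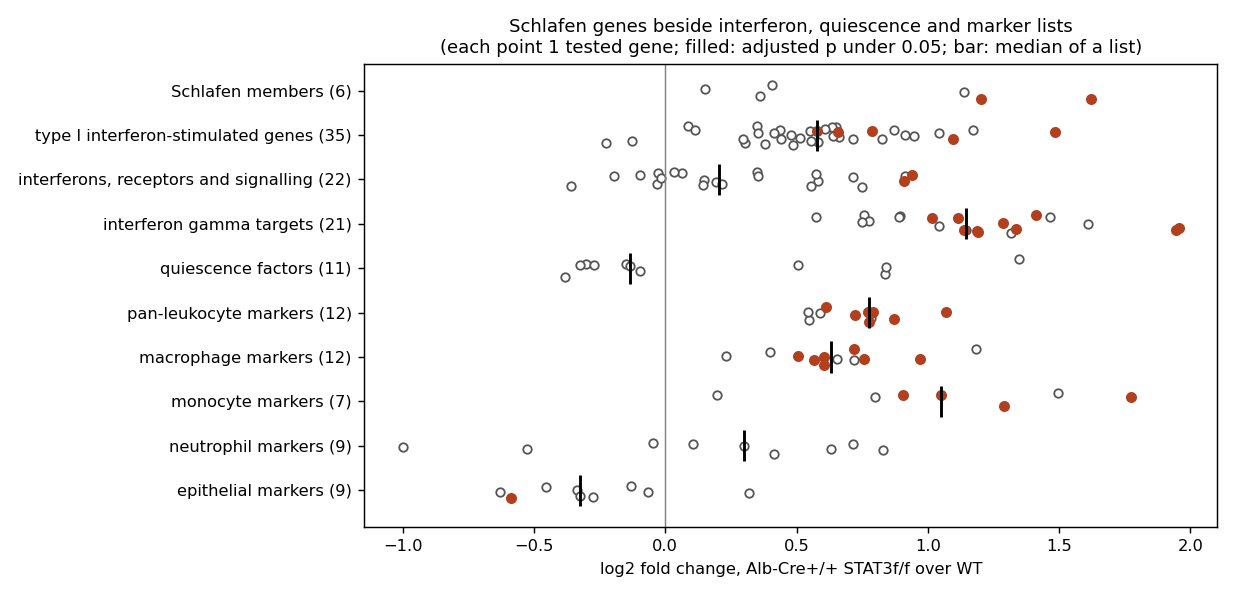
Log2 fold change (Alb-Cre+/+ STAT3f/f over WT) of each tested gene of the Schlafen family, of the interferon and quiescence lists and of 5 marker lists, 1 point per gene, with the number tested in brackets and a bar at the median of each list other than the Schlafen genes. Filled points passed an adjusted p of 0.05 in edgeR: 10 of 21 interferon gamma targets and 8 of 12 pan-leukocyte markers, beside 0 of 9 neutrophil markers. Of all tested genes 2.23% were called higher.

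Leukocyte markers differed between the same groups of tumours, and their part in the Schlafen differences was not tested. Of 12 pan-leukocyte markers, 8 were called higher and 0 lower (edgeR), and their summed level ran from 635 to 970 CPM in Alb-Cre+/+ STAT3f/f tumours and from 362 to 604 CPM in WT tumours. Laptm5, a lysosomal protein of leukocytes, averaged 161 ± 26.6 CPM in Alb-Cre+/+ STAT3f/f tumours and 106 ± 16.6 CPM in WT tumours (SD, n = 6 each). The same counts were 7 of 12 macrophage markers (1757 to 2642 CPM in Alb-Cre+/+ STAT3f/f tumours, 1167 to 1706 CPM in WT tumours), 4 of 7 monocyte markers (333 to 524 CPM and 185 to 403 CPM) and 3 of 9 dendritic cell markers (167 to 252 CPM and 90.0 to 166 CPM). Of the lymphoid lists, 1 of 11 T cell markers (55.9 to 116 CPM and 19.0 to 55.8 CPM), 2 of 4 cytotoxic and natural killer markers (44.8 to 102 CPM and 22.2 to 37.9 CPM) and 0 of 5 B cell markers (7.22 to 58.1 CPM and 3.75 to 23.9 CPM, with Cd79a at 0 in all tumours) were called higher. An unadjusted p under 0.05 was found for 8 of the 11 T cell markers, all 4 cytotoxic and natural killer markers and all 5 B cell markers. It was also found for all 12 pan-leukocyte, 11 of 12 macrophage, 5 of 7 monocyte and 7 of 9 dendritic cell markers. Over all 12856 tested genes, 2490 had an unadjusted p under 0.05 in edgeR, 2.23% were called higher and 0.747% lower. DESeq2, which gave an adjusted p for more genes of these lists, called 6 of 13 T cell, 5 of 8 cytotoxic and natural killer and 1 of 6 B cell markers higher. It called 9 of 12 pan-leukocyte, 10 of 12 macrophage, 4 of 8 monocyte and 3 of 10 dendritic cell markers. None of 9 neutrophil markers was called by edgeR, with 3 at an unadjusted p under 0.05, and 0 by DESeq2 (127 to 203 CPM in Alb-Cre+/+ STAT3f/f tumours, 146 to 253 CPM in WT tumours). S100a9, a neutrophil calcium-binding protein, averaged 60.0 ± 16.3 CPM in Alb-Cre+/+ STAT3f/f tumours and 55.7 ± 24.1 CPM in WT tumours (SD, n = 6 each). Of 9 epithelial markers, 0 were called higher and 1 lower by edgeR, and 0 and 3 by DESeq2 (2072 to 2871 CPM in Alb-Cre+/+ STAT3f/f tumours and 2656 to 3465 CPM in WT tumours).

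Of the non-immune lists, 1 of 9 fibroblast markers was called higher (4431 to 7661 CPM in Alb-Cre+/+ STAT3f/f tumours, 3371 to 6289 CPM in WT tumours), and 0 of 8 endothelial markers (109 to 215 CPM and 123 to 195 CPM) and 0 of 20 acinar markers (5899 to 684891 CPM and 4245 to 221753 CPM) were called by edgeR, with 1 and 6 at an unadjusted p under 0.05. DESeq2 called 0 of either list. With the pan-leukocyte score as a covariate, an alternative added after the data were seen, the log2 fold change was 0.72 ± 0.38 (SE) for Slfn1 and 0.60 ± 0.28 (SE) for Slfn5, both at an adjusted p of 0.967 in edgeR with Benjamini-Hochberg adjustment. In that fit 1 of the 12856 genes was called in all. The scores of the groups did not overlap (5.26 to 5.85 in Alb-Cre+/+ STAT3f/f tumours and 4.47 to 5.20 in WT tumours, mean log2 CPM), so genotype and leukocyte score cannot be told apart well in these tumours. Without the 5 tumours rich in acinar counts, which leaves 2 Alb-Cre+/+ STAT3f/f and 5 WT tumours, the log2 fold change was 1.87 ± 0.22 (SE) for Slfn1 and 1.32 ± 0.18 (SE) for Slfn5, with adjusted p of 0.00129 and 0.00368 in edgeR.

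Tumours of 1 genotype also differed among themselves. The score of a list was the mean log2 CPM of its tested genes, and 72 relations of 6 members to 12 marker lists were computed over the 12 tumours. With tumours permuted across genotypes, 17 of the 72 had an adjusted permutation p under 0.05. Of these 17, 14 belonged to Slfn1 and Slfn5, whose genotype groups do not overlap, so they cannot be told apart from the genotype difference. In an alternative added after the data were seen, the genotype means were subtracted and tumours were permuted within genotype. Then 0 of the 72 passed, with a lowest adjusted permutation p of 0.072, and 14 had an unadjusted p under 0.05. The r values that follow are within each genotype (n = 6) and are a description. Slfn1 had r = 0.93 with the pan-leukocyte score in Alb-Cre+/+ STAT3f/f tumours and 0.68 in WT tumours, and Slfn5 had 0.47 and 0.62. With the monocyte score Slfn1 had r = 0.68 and 0.84 in Alb-Cre+/+ STAT3f/f and WT tumours, and Slfn5 had 0.34 and 0.83. With the endothelial score both were high, at r = 0.70 and 0.94 for Slfn1 and 0.90 and 0.75 for Slfn5. The fibroblast score had the highest r of Slfn1 once the genotype means were subtracted (0.78). With it r was 0.89 and 0.43 for Slfn1 and 0.82 and 0.46 for Slfn5. With the macrophage score r was 0.75 and 0.60 for Slfn1 and 0.44 and 0.58 for Slfn5. With the epithelial score it was 0.61 and -0.87 for Slfn1 and -0.12 and -0.73 for Slfn5. With the B cell score it was -0.52 and 0.70 for Slfn1 and -0.20 and 0.88 for Slfn5. With the acinar score r was 0.0037 and 0.74 for Slfn1 and 0.70 and 0.79 for Slfn5. WT tumour 5, the WT tumour with the highest Slfn5, also held the highest acinar share among WT tumours, 20.9% of its counts. With the acinar score as a covariate, the log2 fold change of Slfn5 was 1.00 ± 0.15 (SE; adjusted p = 0.000823, edgeR with Benjamini-Hochberg adjustment).

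For the other members, the marker list with the highest r after the genotype means were subtracted is described. For Slfn2 it was the neutrophil list, with Pearson r = 0.75 and Spearman rho = 0.76 over 12 tumours (adjusted permutation p = 0.098 and 0.101). The r was 0.69 within Alb-Cre+/+ STAT3f/f tumours and 0.81 within WT tumours. With genotype means subtracted it was 0.76 without the 2 tumours farthest from the mean score of their genotype. The strongest negative r of Slfn2 was with the acinar score (r = -0.61, rho = -0.83, adjusted permutation p = 0.228 and 0.098). That r was -0.73 within Alb-Cre+/+ STAT3f/f tumours, -0.41 within WT tumours and -0.90 without the 2 farthest. Slfn8 had its highest r with the dendritic cell score (r = 0.80, rho = 0.81, adjusted permutation p = 0.098 for both). That r was 0.78 within Alb-Cre+/+ STAT3f/f tumours, 0.80 within WT tumours and 0.67 without the 2 farthest. Slfn9 had its highest r with the cytotoxic and natural killer score (r = 0.60, rho = 0.61, adjusted permutation p = 0.259 and 0.271), with r = 0.36 within Alb-Cre+/+ STAT3f/f tumours, 0.83 within WT tumours and 0.31 without the 2 farthest. For Slfn4 it was the neutrophil score, with r = 0.43 and rho = 0.17 (adjusted permutation p = 0.556 and 0.748). This r was 0.97 within Alb-Cre+/+ STAT3f/f tumours and -0.44 within WT tumours, a difference that was not tested. It was 0.073 without the 2 farthest. With the pan-leukocyte score Slfn4 had r = 0.44 and 0.20 within Alb-Cre+/+ STAT3f/f and WT tumours, and with the dendritic cell score 0.39 and 0.21. By rank, with genotype means subtracted, Slfn4 was highest with the pan-leukocyte score (r = 0.31, rho = 0.70, adjusted permutation p = 0.610 and 0.141). No relation of these 4 members passed within genotype.

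**Figure D5:**
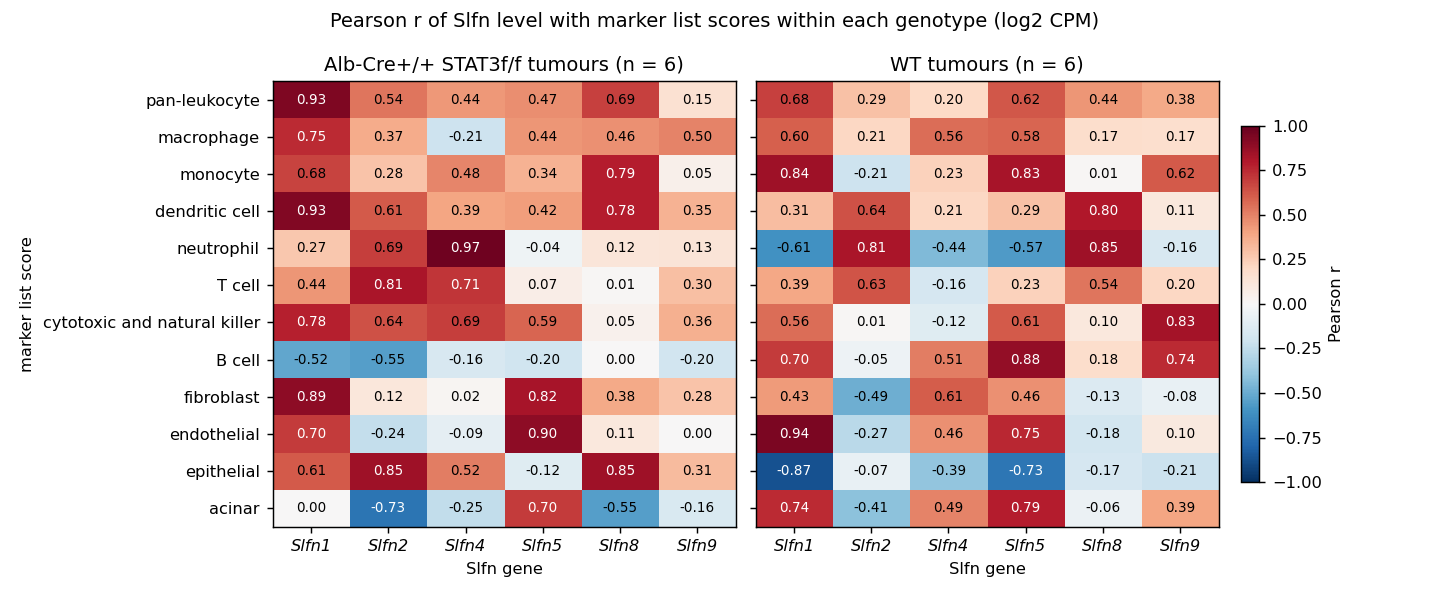
Pearson r between the level of each tested Schlafen gene and the score of each marker list (mean log2 CPM of its tested genes), within the 6 Alb-Cre+/+ STAT3f/f tumours (left) and within the 6 WT tumours (right). Slfn2 has r of 0.69 and 0.81 with the neutrophil score in Alb-Cre+/+ STAT3f/f and WT tumours, and Slfn8 has r of 0.78 and 0.80 with the dendritic cell score.

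Both interferon scores separated the genotypes. The type I score ran from 4.53 to 5.09 in Alb-Cre+/+ STAT3f/f tumours and from 3.81 to 4.47 in WT tumours, and the interferon gamma score from 5.11 to 6.06 and from 3.55 to 4.68 (mean log2 CPM). Of 12 relations of members to these scores, 9 had an adjusted permutation p under 0.05 with tumours permuted across genotypes, 4 of them of Slfn1 and Slfn5. With genotype means subtracted and permutation within genotype, 0 of the 12 passed (lowest adjusted permutation p = 0.105) and 5 had an unadjusted p under 0.05. Within genotypes, as a description, r with the type I score in Alb-Cre+/+ STAT3f/f and WT tumours was 0.76 and 0.56 for Slfn1, 0.50 and 0.74 for Slfn5, and 0.69 and 0.62 for Slfn9. It was 0.69 and 0.52 for Slfn4, 0.79 and 0.19 for Slfn2, and 0.18 and 0.40 for Slfn8. With the interferon gamma score r was 0.90 and 0.54 for Slfn2, 0.71 and 0.42 for Slfn1, 0.29 and 0.39 for Slfn5, 0.58 and 0.41 for Slfn9, 0.26 and 0.60 for Slfn8, and 0.72 and -0.022 for Slfn4. The windows that hold the response element core are those of Slfn5, Slfn8 and Slfn9, and no difference in r between members was tested.

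Among the members 15 pairs were compared. With tumours permuted across genotypes, 1 had an adjusted permutation p under 0.05, Slfn1 with Slfn5, the pair whose genotype groups do not overlap. With genotype means subtracted and permutation within genotype, 0 pairs passed by Pearson r and 2 had an unadjusted p under 0.05, while 1 pair passed by Spearman rho. That pair was again Slfn1 with Slfn5 (r = 0.53, rho = 0.90, adjusted permutation p = 0.139 and 0.0058), with r = 0.70 within Alb-Cre+/+ STAT3f/f tumours, 0.89 within WT tumours and 0.67 without the 2 farthest tumours. Slfn2 and Slfn8 had r = 0.69 and rho = 0.53 in that way (adjusted permutation p = 0.139 and 0.278), with r = 0.48 and 0.89 within Alb-Cre+/+ STAT3f/f and WT tumours. Slfn8 and Slfn9, whose upstream windows were the most alike, had r = -0.047 and rho = -0.056 (adjusted permutation p = 0.890 and 0.957). Genes most alike in pattern were sought among 10585 genes with a mean of at least 5 CPM, by Pearson r of log2 CPM over 12 tumours with the genotype means subtracted, a search whose highest values are high in any case with so many genes. The first for each member was Rnf213 for Slfn1 (r = 0.92), Snhg20 for Slfn2 (r = 0.94), Cd300ld for Slfn4 (r = 0.91), Zbtb7b for Slfn5 (r = 0.91), Pelo for Slfn8 (r = 0.92) and Zwilch for Slfn9 (r = 0.86). The next 2 were Zbtb8os and Ptn for Slfn1, Cfb and Nmt1 for Slfn2, Tlcd1 and Kidins220 for Slfn4, Smtn and Ywhah for Slfn5, Fam13b and Rtel1 for Slfn8, and Bysl and Reep6 for Slfn9. Of these 18 genes, none was called between genotypes by edgeR.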

How the data were processed

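Counts of 3′ tags per gene symbol were deposited by the authors for 12 tumours; per the labels' protocols, RNA was isolated with the RNeasy FFPE kit and libraries were made with QuantSeq FWD, after scraping fixed tissue from slides. The submitters' processing notes name STAR and mm10. Their versions, the counting tool and the strand setting are unknown from the sources at hand. The table had 24982 rows, and 26 with a date number in place of a symbol (0.0690 to 0.166% of counts) were left out. Per-tumour totals were 5691707 to 8085609 counts, which limits Slfn3 and Slfn4 most.

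Counts were filtered (filterByExpr, minimum count 10), TMM-scaled and tested in edgeR 4.0.16 (R 4.3.3) with the robust quasi-likelihood test, two-sided, with Benjamini-Hochberg adjustment over 12856 genes; SE is the fold change over the root of F. No pair of libraries agreed within sampling noise. The code was tested on simulated data. CPM values are TMM-scaled; log2 CPM used a prior count of 2. Relations used 100000 permutations across tumours and, as an added alternative, within genotype, adjusted within families of 72, 12 and 15. Promoter windows are RefSeq, transcripts GENCODE M21.

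The members, the lists and the tests were chosen with earlier results of these data known. Named genes were all Slfn symbols, up to 4 called genes per pathway list (or the 2 with the smallest p), the 2 most abundant of each marker list (a few are given), called and nearest neighbours, and the 3 most alike genes per member. Alternatives were DESeq2 1.42.0, other scalings and filters, acinar and leukocyte covariates, the replicate block, summed paralogs and leaving out each tumour.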

Additional observations from a re-analysis of the deposited data

Results flagged for a closer look

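Among 16 groups of 6 values (8 Slfn genes in 2 genotypes), 2 held a tumour that stood apart from the others by Dixon's ratio of gap to range, taken at the 95% critical value for 6 samples. Chance flags about 1 in 20 groups.

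Slfn5 in WT tumours had a ratio of 0.795: WT tumour 5 was at 45.1 CPM and the next WT tumour at 26.7 CPM. In WT tumour 5, genes of the acinar list held 20.9% of counts, and in the other WT tumours 0.54 to 9.0%. The part of acinar content in that value was not tested.

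Slfn3 in Alb-Cre+/+ STAT3f/f tumours had a ratio of 0.832: tumour 6 was at 1.39 CPM and the next at 0.234 CPM. The value rests on 11 counts.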

How the results depend on the processing

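The call of Slfn1 and Slfn5 as higher, and of no other member, was kept with DESeq2, other size factors, both other filters and without acinar genes. It was also kept with the acinar score as covariate, without acinar-rich tumours and without each tumour in turn. In each of these fits 2 members were called. Without each tumour in turn, the log2 fold change was 1.47 to 1.77 for Slfn1 and 1.14 to 1.40 for Slfn5. Outside these ranges lay Slfn1 without acinar-rich tumours (1.87) and Slfn5 with the acinar score as covariate (1.00). Scaling by library totals alone moved the median log2 fold change of all genes to -0.41 and called 1 member, Slfn1. It left Slfn1 at 1.23 (adjusted p = 0.028, edgeR) and Slfn5 at 0.80 (adjusted p = 0.0545, edgeR). Slfn2 (-0.22), Slfn9 (-0.015) and Slfn10-ps (-0.25) turned. The groups of Slfn1 and Slfn5 overlapped on that scale. Close paralogs summed gave 1 call, and Slfn1 with Slfn2, a sum made mostly of Slfn2 counts, 0.30. The whole family summed, with Slfn10-ps, had a log2 fold change of 0.46 ± 0.11 (SE; adjusted p = 0.0273, edgeR with Benjamini-Hochberg adjustment). With the pan-leukocyte score as covariate, added after the data were seen, 0 members were called and Slfn2 (-0.19), Slfn4 (-0.045), Slfn8 (-0.31) and Slfn10-ps (-0.12) turned. Slfn10-ps ran from -0.065 to 0.19 over left-out tumours and turned without WT tumour 1 (-0.0083) or 2 (-0.020) and without Alb-Cre+/+ STAT3f/f tumour 1 (-0.0028) or 6 (-0.065). The cause of these changes was not tested.

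The counts of called genes in the lists moved more. Type I interferon-stimulated genes (5) gave 12 with DESeq2, 0 with library totals, 0 with the acinar covariate, 1 without acinar-rich tumours and 0 to 7 without each tumour. Signalling genes (2) gave 5, 0, 1 and 0 in the same order and 1 to 3 without each tumour. Interferon gamma targets (10) gave 19, 2, 5 and 4, and 5 to 13. Quiescence factors (0) gave 2 with DESeq2, 1 without a filter and 0 to 1. Neighbours of the cluster (2) gave 0 with library totals, 1 with the acinar covariate, 1 without acinar-rich tumours and 1 to 4. Over all genes DESeq2 called 614 higher and 283 lower, against 287 and 96 with edgeR. Higher calls over all genes were 32 with library totals, 140 with the acinar covariate and 83 without acinar-rich tumours. They were 145 with the replicate block and 141 to 471 without each tumour.

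Deviations from the genotype mean in samples with the same replicate number had correlations of -0.51 to 0.13. Samples with unlike numbers were not compared, so these values cannot decide whether the numbers pair samples. The labels state no pairing. With the replicate block, 2 members, 1 type I interferon-stimulated gene, 1 signalling gene, 2 interferon gamma targets, 0 quiescence factors and 3 neighbours were called. With a prior count of 0.5, 18 in place of 17 marker relations, 9 interferon relations and 1 pair passed. With genotype means subtracted and tumours permuted within genotype, added after the data were seen, 0 marker relations, 0 interferon relations and 0 pairs passed by Pearson r.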
